A study of Mus musculus with 16 samples.

Results

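Immediate early genes are switched on within minutes of a stimulus, from factors that already sit on their promoters and without new protein synthesis. Growth factor and stress kinases and cyclic AMP signalling reach them through serum response factor, its ETS partners and CREB, and in granulosa cells the ovulatory surge of luteinizing hormone is a known inducer. Many of their products are transcription factors, and others close the loop again as phosphatases or repressors. Tissue dissociation and cell handling are also known to induce them.

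Here 10 of these genes were described, out of 57010 counted: Egr1, Fos, Fosb, Jun, Junb, Ier2, Nr4a1, Atf3, Dusp1 and Gadd45b. They were taken by symbol, and the set was chosen by the counts of Egr1 and Fos, which were lower in cells given 14,15-EET. For these 10 genes that comparison is therefore given as a description without a test, and they were tested only in the other comparisons. All 10 passed the low-count filter in every comparison.

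The RNA came from mouse ovarian granulosa cells (mGCs) of ICR females bought at 6 weeks of age. In the EM group, the endometriosis model, donor endometrium had been grafted onto the mesentery, and the Con group had sham surgery. The mice with grafts kept their ovaries and were given 17β-estradiol, followed by a washout, and the methods do not say whether the sham-operated mice were too. Both groups had ovulation induced with gonadotropin (PMSG or HCG) before the cells were taken, and 5 EM-mGC and 5 Con-mGC libraries were made from freshly isolated cells of separate mice. In a second experiment, mGCs of 6 EM mice were divided at random, cultured in DMEM/F12 medium with 5% fetal bovine serum for 24 h, and received 100 nM 14,15-EET (EET, 3 libraries), an epoxide of arachidonic acid, or an equal volume of PBS (3 libraries) for 24 h. Both cultured groups thus came from grafted mice, and cultured cells of Con mice were not analysed here. Libraries held 14229123 to 15999234 counts in the fresh groups and 21384686 to 29482826 in the cultured groups. Levels are CPM (counts relative to the library's total) scaled within each experiment unless stated otherwise, and the number of libraries limits the precision more than the depth, since the lowest count of any of these genes in any library was 60.

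The granulosa label was checked against 10 markers. The inhibin subunit Inha and the ovarian factor Foxl2 were counted at no fewer than 41427 and 2511 reads in any library. In culture Cyp19a1, the aromatase that makes estradiol, had at most 9 reads and Amh at most 10, and both were clearly present in fresh cells, with at least 2229 and 512 reads. Fresh libraries also held leukocyte, red cell, theca and endothelial transcripts, so a change in the share of a cell type and a change in RNA per cell cannot be told apart in these bulk samples.

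Promoter sequences were available for 8 of the 10 genes in the RefSeq table of build GRCm38.p6. Egr1 and Ier2 had no entry there and were not searched. In the 250 bases before the start, TGACG, the core of the cyclic AMP response element bound by CREB and ATF proteins, was searched for on both strands. It was in 6 of the 8 promoters, those of Fos, Fosb, Junb, Nr4a1, Atf3 and Dusp1, and in 17.7% of 32817 promoter windows of the same length. The last 150 bases before the start are shown for the immediate early genes with the most copies and for Fosb, with the capitals marking TGACG or its reverse complement CGTCA. They lie at chr12:85473740-85473889 on the plus strand for Fos, chr7:19310046-19310195 on the minus strand for Fosb, chr15:101266696-101266845 on the plus strand for Nr4a1 and chr17:26508473-26508622 on the minus strand for Dusp1.
Fos: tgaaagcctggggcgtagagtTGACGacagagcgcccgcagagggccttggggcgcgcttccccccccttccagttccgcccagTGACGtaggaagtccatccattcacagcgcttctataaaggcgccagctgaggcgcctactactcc
Fosb: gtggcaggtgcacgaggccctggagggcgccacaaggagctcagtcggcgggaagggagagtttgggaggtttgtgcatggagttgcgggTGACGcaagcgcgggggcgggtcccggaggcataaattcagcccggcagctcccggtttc
Nr4a1: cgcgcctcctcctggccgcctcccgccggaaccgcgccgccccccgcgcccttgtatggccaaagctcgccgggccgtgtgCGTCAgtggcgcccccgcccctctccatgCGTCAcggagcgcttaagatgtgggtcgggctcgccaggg
Dusp1: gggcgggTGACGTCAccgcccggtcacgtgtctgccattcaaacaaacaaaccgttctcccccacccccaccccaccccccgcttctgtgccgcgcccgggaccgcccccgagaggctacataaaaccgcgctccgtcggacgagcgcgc
In Fos the copies began 129 and 66 bases before the start and a TATAAA box 33 bases before it, and in Fosb a single copy began 60 bases before it. Nr4a1 held 4 copies within 250 bases, of which the printed stretch shows those 69 and 40 bases before the start. In Dusp1 matches on opposite strands overlapped, at 143 and 140 bases before the start, to give the full palindrome TGACGTCA. The EGR motif GCGNGGGCG was in 3 of the 8 promoters (Fosb, Nr4a1 and Gadd45b) against 4.7% of all windows, TATAAA in 2 (Fos and Gadd45b) against 12.4%, and the ETS core CCGGAA in 1 (Nr4a1) against 12%. The AP-1 motif TGANTCA (6.75% of all windows) and the CArG box of serum response factor (1.47%) were in 0 of the 8, which says only that these letters were not in this stretch. These matches are letters in the sequence and were not tested as binding sites.

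The comparison of EET with PBS asked what 14,15-EET does to mGCs of EM mice. Egr1, a zinc finger transcription factor, and Fos, which pairs with JUN proteins to form AP-1, were lower with 14,15-EET, and these are the values that chose the set. The log2 fold changes of the other 8 genes lay between -0.16 (Nr4a1) and 0.37 (Atf3). The members' median log2 fold change was -0.08, beside 0.00 over all 15050 genes tested, and 4 of the 10 genes had a log2 fold change above 0.

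Egr1 (chromosome 18, 34992876 to 34998037) stood at 65.6, 66.8 and 77.2 CPM in the PBS libraries and at 40.3, 44.8 and 39.1 CPM in the EET libraries. The groups did not overlap, and every EET library lay below every PBS library. The log2 fold change was -0.76 ± 0.07 (SE), and between -0.82 and -0.68 when any 1 library was left out. Its relatives Egr2 and Egr3 had log2 fold changes of 0.14 and 0.66 between the same groups, neither of which passed the test (edgeR adjusted p = 0.825 and 0.417).

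Fos (chromosome 12, 85520664 to 85524047) stood at 30.5, 37.5 and 44.5 CPM with PBS and at 22.5, 22.9 and 19.1 CPM with EET. Again no library of one group reached the other, although the PBS libraries were spread more widely than for Egr1. The log2 fold change was -0.80 ± 0.12, with a range of -0.93 to -0.66 over the fits without 1 library. Fosb, its closest paralog, was at 8.16, 7.31 and 7.84 CPM with PBS and at 7.95, 8.83 and 9.17 CPM with EET. Its log2 fold change of 0.15 ± 0.11 was in the other direction and the groups overlapped.

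The JUN proteins are the partners of FOS in AP-1. Jun was at 114.3, 104.4 and 107.4 CPM with PBS and at 108.0, 106.4 and 107.4 CPM with EET (log2 fold change -0.02 ± 0.05). Junb was at 102.3, 94.0 and 96.1 CPM against 100.7, 98.3 and 98.6 CPM (0.03 ± 0.05). Both pairs of groups overlapped, and the EET libraries of both genes lay inside the range of the PBS libraries. Jund, outside the set, had a log2 fold change of 0.02.

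Ier2, a nuclear protein without a known DNA-binding domain, was the third gene without overlap, at 63.4, 63.1 and 70.4 CPM with PBS and 61.5, 58.5 and 59.1 CPM with EET. The gap between the groups was narrow and the log2 fold change was -0.14 ± 0.06. Non-overlap with EET lower, as in these 3 genes, was seen in 9.17% of all genes tested, and since the comparison chose the set nothing is read from that count. Nr4a1, the orphan nuclear receptor NUR77, overlapped at 52.0, 46.7 and 51.8 against 47.4, 44.1 and 42.9 CPM (-0.16 ± 0.06). Its relatives Nr4a2 and Nr4a3 had log2 fold changes of 0.01 and -0.68, neither of which passed the test (edgeR adjusted p = 0.993 and 0.298).

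The remaining genes act in stress signalling. Atf3, a stress-induced repressor of the ATF family, was scarce, at 2.85, 2.89 and 3.99 CPM with PBS and 4.32, 3.46 and 4.86 CPM with EET (0.37 ± 0.18), and the groups overlapped. Dusp1, a phosphatase that switches off MAP kinases, was at 114.9, 87.8 and 88.5 CPM with PBS against 80.3, 89.2 and 93.1 CPM with EET. Its log2 fold change of -0.15 ± 0.09 rested on PBS-1, being -0.01 without that library. Gadd45b, a growth arrest and DNA damage gene, was at 79.4, 66.3 and 62.2 CPM against 71.5, 75.4 and 81.4 CPM (0.14 ± 0.08), also with overlap.

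**Figure D1:**
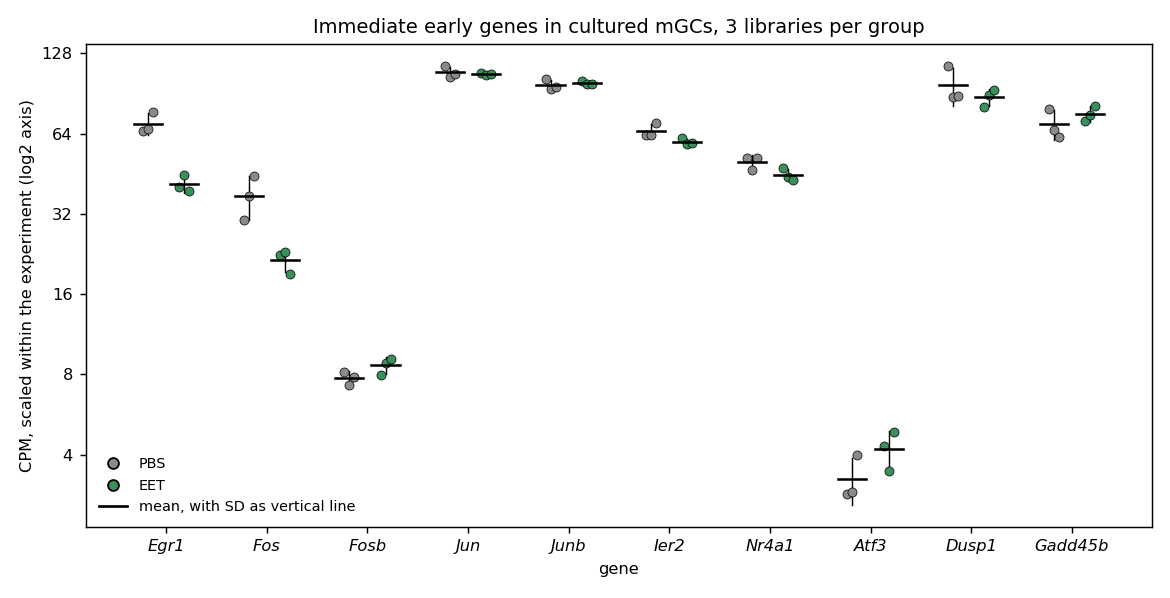
Levels of the 10 genes in cultured mGCs with PBS (grey) or 14,15-EET (green), as CPM scaled within the experiment on a log2 axis, with 1 point per library (3 per group), a horizontal line at the mean and a vertical line of 1 SD to each side. Egr1 and Fos are the 2 genes with a wide gap between the groups, at log2 fold changes of -0.76 and -0.80, while Jun, Junb and Dusp1 stay near 100 CPM in both.

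Over all genes, 184 of 15050 were called between EET and PBS (1.22%, edgeR quasi-likelihood test, adjusted p of 0.05). DESeq2 called 2.5%, and 12.4% had an unadjusted edgeR p below 0.05. The wider lists of the early response held no edgeR call. Of the family relatives 0 of 16 tested were called (2 at an unadjusted p below 0.05, 0 with DESeq2), of the other immediate early genes 0 of 29 (5 unadjusted, 2 with DESeq2), and of the upstream kinases and factors 0 of 28 (2 unadjusted, 0 with DESeq2). This last list holds the RAS, RAF and MAP kinases, SRF with its cofactors, and CREB. The 2 family relatives at an unadjusted p below 0.05 were both lower with EET. They were Nr4a3 at -0.68 and Dusp5 at -0.25 (edgeR adjusted p = 0.298 and 0.397). Of the 16 relatives tested, 10 had higher and 6 lower means with EET. The methods call the 3 cultured replicates paired, and with the replicate number as a block 341 genes were called, with Egr1 at -0.75 and Fos at -0.79.

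Some cell type markers also moved between EET and PBS. Of the 8 granulosa markers tested out of 10, Inha was called lower with EET (log2 fold change -0.36, edgeR adjusted p = 0.043). Foxl2 at -0.22 and Hsd17b1 at -0.25 did not pass the test (edgeR adjusted p = 0.0776 and 0.235), and DESeq2 called 2 of the list. Of the 8 tested, 4 had higher and 4 lower means with EET, with a median log2 fold change of -0.01. At an unadjusted p below 0.05 there were 3 lower and 1 higher, Inhbb at 0.13 (edgeR adjusted p = 0.285). The granulosa markers summed to 5231 to 5636 CPM with EET and 5560 to 6091 CPM with PBS. Of the 4 leukocyte markers tested out of 8, 0 were called by edgeR or DESeq2 and 1 had an unadjusted p below 0.05, Lyz2 with a log2 fold change of 1.08 (edgeR adjusted p = 0.108). Their sums were 16.4 to 25.9 CPM with EET and 14.5 to 16.7 CPM with PBS. The part of these shifts in the levels of Egr1 and Fos was not tested.

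The comparison of freshly isolated mGCs asked how cells of EM mice differ from those of sham-operated mice. All 10 genes had a higher mean in the EM group, and none passed the test. A log2 fold change above 0 was seen in 48.2% of all 17229 genes. The values ran from 0.24 for Dusp1 to 0.90 for Junb with a median of 0.60, beside -0.01 over all genes. Of all genes 0% were called in this comparison by edgeR and 0.632% by DESeq2, and 0 of the 10 were called by either. At an unadjusted p below 0.05 there were 4 (Fos, Junb, Ier2 and Gadd45b), all higher in the EM group, where 9.44% of all genes had such a p and 5.22% were also higher. The groups overlapped for each of the 10, and non-overlap was seen in 1.69% of all genes.

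Fos was at 189.1, 112.2, 215.1, 174.9 and 130.1 CPM in the Con group and at 206.9, 251.1, 206.4, 491.6 and 267.5 CPM in the EM group. A single Con library, Con-mGC-3, reached into the EM range. The log2 fold change was 0.79 ± 0.25 (edgeR adjusted p = 0.437, DESeq2 adjusted p = 0.145). Fosb was at 141.7, 130.7, 222.5, 145.0 and 101.3 CPM in the Con group and at 163.4, 171.2, 141.4, 522.5 and 216.7 CPM in the EM group. Here Con-mGC-3 lay above 4 of the 5 EM libraries (0.71 ± 0.34, edgeR adjusted p = 0.538).

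Egr1 was at 264.2, 222.1, 254.7, 189.7 and 169.5 CPM in the Con group and at 218.8, 216.6, 198.1, 516.7 and 238.7 CPM in the EM group. All EM libraries but EM-mGC-4 lay inside the Con range. The log2 fold change of 0.34 ± 0.25 (edgeR adjusted p = 0.681) became -0.01 without EM-mGC-4.

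Jun (chromosome 4, 94937271 to 94940459) was at 237.3, 165.0, 291.4, 264.5 and 200.2 CPM in the Con group and at 245.3, 306.7, 224.1, 525.7 and 326.2 CPM in the EM group (0.49 ± 0.23, edgeR adjusted p = 0.53). Junb was at 51.2, 65.7, 107.3, 52.9 and 43.1 CPM against 97.8, 69.5, 113.6, 210.2 and 105.0 CPM (0.90 ± 0.30, edgeR adjusted p = 0.456). For Junb all EM libraries lay above 4 of the 5 Con libraries, and the overlap came from Con-mGC-3. Junb overlaps Prdx2 on the opposite strand and Dusp1 overlaps Ergic1, and the strand setting of the counting is not stated, so the levels of both are uncertain.

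Ier2 ran from 46.1 to 76.2 CPM (median 56.8) in the Con group and from 67.5 to 157.2 CPM (median 77.2) in the EM group. Nr4a1 ran from 72.9 to 109.3 CPM against 76.6 to 172.2 CPM, and Dusp1 from 85.5 to 170.8 CPM against 73.2 to 218.5 CPM. Both overlapped over most of the Con range. Atf3 ran from 13.7 to 49.1 CPM against 24.4 to 85.5 CPM, and Gadd45b from 12.1 to 22.5 CPM against 13.1 to 34.5 CPM. The log2 fold changes were 0.64 ± 0.22 for Ier2, 0.40 ± 0.20 for Nr4a1, 0.24 ± 0.27 for Dusp1, 0.80 ± 0.38 for Atf3 and 0.55 ± 0.25 for Gadd45b.

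**Figure D2:**
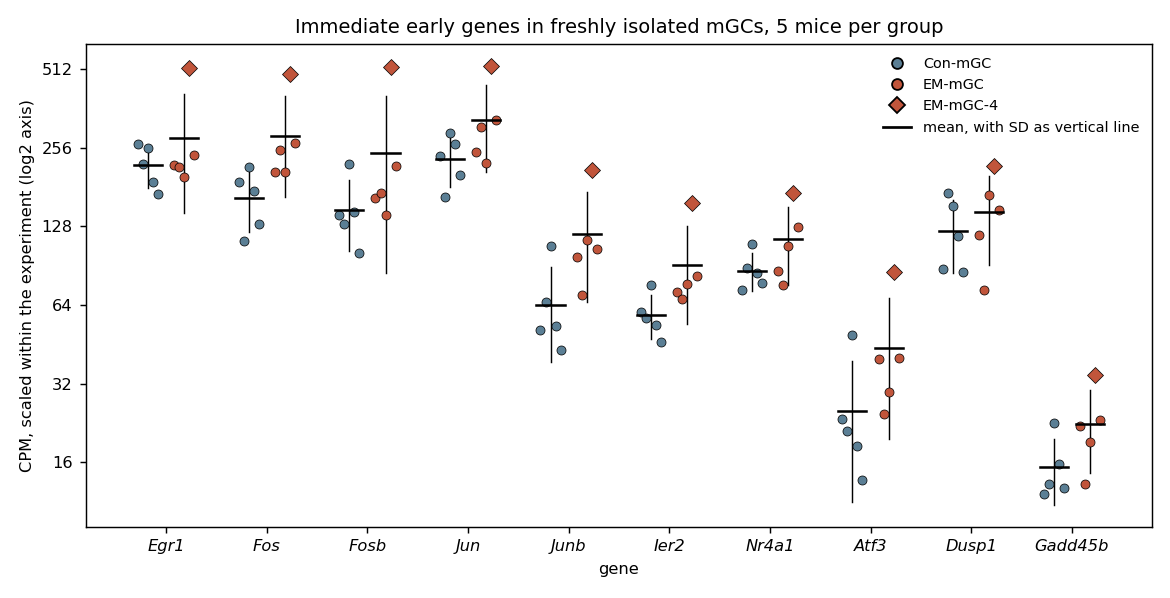
Levels of the 10 genes in freshly isolated mGCs of the Con group (blue) and the EM group (red), as CPM scaled within the experiment on a log2 axis, with 1 point per mouse (5 per group), a horizontal line at the mean and a vertical line of 1 SD to each side. The diamond is EM-mGC-4, which is the highest EM library for all 10 genes, and the groups overlap for every gene.

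EM-mGC-4 was the highest of the EM group for 10 of the 10 genes, at 1.64 times (Dusp1) to 3.12 times (Fosb) the median of the other EM libraries, and above every Con library. Without it the median log2 fold change was 0.30, with Fos at 0.50, Fosb at 0.23, Jun at 0.25, Junb at 0.59, Ier2 at 0.35, Nr4a1 at 0.20, Atf3 at 0.41, Dusp1 at 0.05 and Gadd45b at 0.35. Dusp1 also depended on EM-mGC-2, without which it was at 0.41. In the Con group, Con-mGC-3 was the highest library for 8 of the 10 genes, and without it the median rose to 0.74.

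Some cell type markers also stood apart in these libraries. EM-mGC-4 had the lowest summed granulosa markers of the 10 fresh libraries, 6217 CPM against 11074 to 21683 CPM in the others. It also had the highest summed neutrophil markers, 198 CPM, next to 180 CPM in EM-mGC-5 and 6.68 to 84.3 CPM in the rest. Con-mGC-3 had 58.5 CPM of neutrophil markers, while the other Con libraries had 6.68 to 12.2 CPM. Over the groups, all 6 neutrophil markers tested out of 8 were higher in the EM group at an unadjusted p below 0.05 (0 called by edgeR, 3 by DESeq2), with sums of 41.5 to 198 CPM against 6.68 to 58.5 CPM. Ly6g had no reads in at least 1 library of each group, and Mmp8 in at least 1 Con library. All 8 leukocyte markers had higher means in the EM group (4 at an unadjusted p below 0.05, 0 called by edgeR, 3 by DESeq2), with sums of 303 to 825 CPM against 204 to 406 CPM, and none of them was at 0 in a fresh library. The highest leukocyte sum was in EM-mGC-3, at 825 CPM against 519 CPM in EM-mGC-4. The 10 immediate early genes summed to 1286 CPM in EM-mGC-3 and to 2935 CPM in EM-mGC-4. In the Con group, Con-mGC-3 had the highest leukocyte sum, 406 CPM. Theca and stromal markers summed to 999 to 1732 CPM in the EM group and to 1899 to 2119 CPM in the Con group, without overlap. Of the 8, 5 had lower means in the EM group and 3 higher ones, Cyp17a1 (log2 fold change 0.19), Dcn (0.16) and Tagln (0.25). The 3 that were lower at an unadjusted p below 0.05 were the collagen genes Col1a1, Col1a2 and Col3a1 (0 called by edgeR, 1 of the list by DESeq2). All 6 endothelial markers had lower means in the EM group (2 at an unadjusted p below 0.05, 0 called by edgeR, 0 by DESeq2). All 4 red cell markers had higher means there (0 at an unadjusted p below 0.05, 0 called by edgeR, 0 by DESeq2), with sums of 2582 to 17123 CPM against 3727 to 5818 CPM. Of all genes, 9.44% had an unadjusted p below 0.05 in this comparison, and 5.22% also had a higher mean in the EM group. The part of these cell types in the levels of the immediate early genes was not tested.

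Heat shock genes that respond to cell handling had higher means in the EM group for 8 of 8, beside 48.2% of all genes. Of these 8, 3 had an unadjusted p below 0.05 (0 called by edgeR, 0 by DESeq2). Their sums ran from 1873 to 2586 CPM in the EM group and from 1599 to 2075 CPM in the Con group. EM-mGC-4, with 2330 CPM, was not the highest. Genes of the luteinizing hormone response summed to 110 to 207 CPM in the EM group and to 62.3 to 177 CPM in the Con group, with EM-mGC-4 the highest. By the mean log2 CPM of the list Con-mGC-2 was the highest, at 3.34 against 3.21 in EM-mGC-4. In the EM group 6 of the 9 had higher and 3 lower means, and 1 had an unadjusted p below 0.05 (0 called by edgeR, 0 by DESeq2). That gene, the progesterone receptor gene Pgr, had the lower mean in the EM group (log2 fold change -1.09). The part of handling and of the time since the gonadotropin was not tested.

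**Figure D3:**
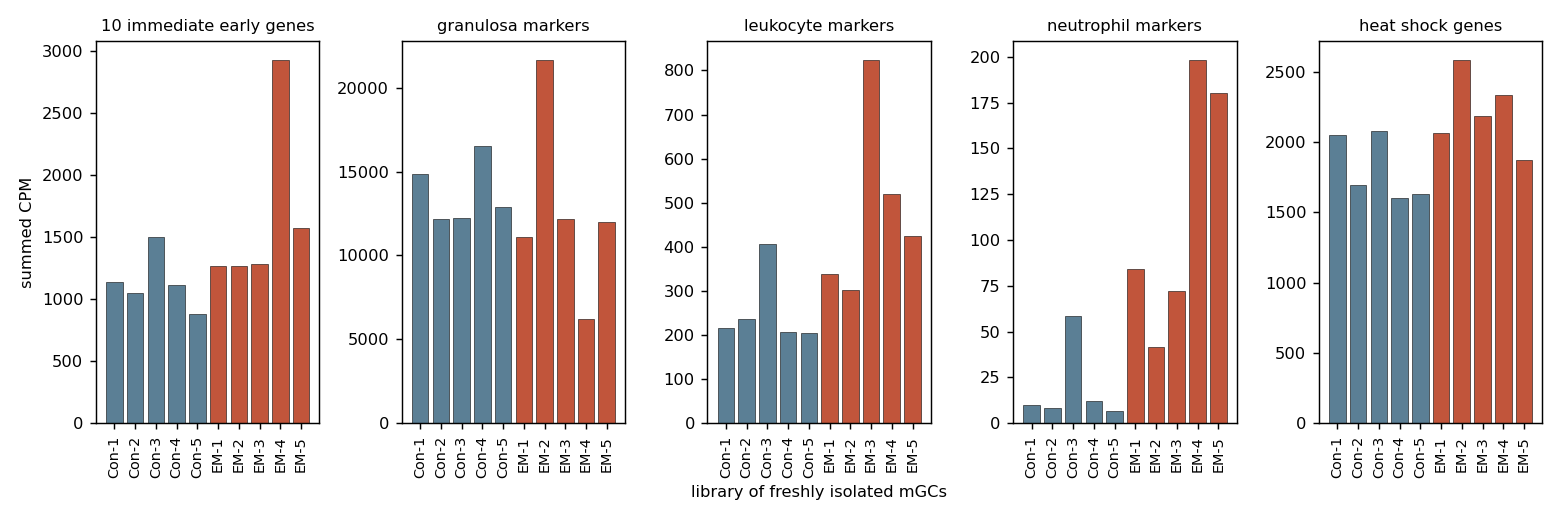
Summed CPM in each of the 10 freshly isolated libraries, with Con libraries in blue and EM libraries in red, for the 10 immediate early genes, for granulosa, leukocyte and neutrophil markers and for heat shock genes, each panel on its own linear axis from 0. EM-mGC-4 has the highest bar for the immediate early genes (2935 CPM) and the neutrophil markers (198 CPM) and the lowest for the granulosa markers (6217 CPM).

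The wider early response was also mostly higher by its means. Over all genes tested, 48.2% had a log2 fold change above 0. An unadjusted p below 0.05 was seen in 9.44% of all genes, and in 5.22% together with a higher mean. Among 30 other immediate early genes, 27 had higher means in EM mice (median on the log2 scale 0.44), and 15 had an unadjusted p below 0.05, all of them higher (0 called by edgeR, 1 by DESeq2). Of 18 family relatives tested out of 20, 16 had higher means, with a median of 0.32 (5 at an unadjusted p below 0.05, 0 called by edgeR, 0 by DESeq2). The 28 upstream kinases and factors split into 14 with higher and 14 with lower means and a median of 0.00 (1 at an unadjusted p below 0.05, 0 called by edgeR, 0 by DESeq2).

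The genes also varied together among the mice. With each library's log2 CPM taken relative to its group mean, Pearson's r between pairs of the 10 genes over the 10 fresh libraries had a median of 0.82 and ran from 0.23 to 0.97. Without EM-mGC-4 the median was 0.63 and the lowest r was -0.23. Ier2 had the highest mean r with the other genes, 0.86, and Dusp1 the lowest, 0.60. These are descriptions over libraries that share their scaling and cell makeup.

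The genes most like the mean of the 10, among 13089 genes ranked over the 10 fresh libraries, were Ier3 (r = 0.982), Hexim1 (0.977), Btg2 (0.975), Sgms2 (0.964), Klf4 (0.961), Pcyt1a (0.956), Colec12 (0.955) and Rgcc (0.953). Without EM-mGC-4 their r lay between 0.870 (Colec12) and 0.954 (Ier3). Ier3, Btg2 and Klf4 are themselves counted among immediate early genes, and Hexim1 encodes an inhibitor of the elongation kinase P-TEFb.

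PBS-treated cultured cells and freshly isolated cells, both of EM mice, were then compared. Culture, mice, depth and experiment cannot be told apart here, and the PBS libraries also served in the comparison that chose the set. Of the 10 genes 6 were lower in the cultured cells and 1 was higher, where 69% of 17301 genes were called, 37.9% lower and 31.1% higher. The share called among the immediate early genes is thus near that of all genes, and what differs from gene to gene is the size, from 25.5-fold lower for Fosb to 3.79-fold higher for Gadd45b.

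In this comparison levels are scaled within each experiment and fold changes over the 8 libraries, which differ by 0.30 on the log2 scale. Fosb fell most, from 141 to 522 CPM in the EM libraries to 7.31 to 8.16 CPM with PBS (log2 fold change -4.67 ± 0.50, edgeR adjusted p = 2.54e-05). Atf3 followed, with 24.4 to 85.5 CPM in fresh and 2.85 to 3.99 CPM in cultured cells (-3.46 ± 0.43, 11.0-fold lower, edgeR adjusted p = 7.23e-05). Fos was 6.18-fold lower (-2.63 ± 0.31, edgeR adjusted p = 5.42e-05) and Egr1 3.24-fold lower (-1.70 ± 0.32, edgeR adjusted p = 0.000961). Jun was 2.44-fold lower (-1.28 ± 0.26, edgeR adjusted p = 0.00139) and Nr4a1 1.85-fold lower (-0.89 ± 0.24, edgeR adjusted p = 0.00791). In each of these 6 genes all PBS libraries lay below all EM libraries, as in 35% of all genes.

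Junb, Ier2 and Dusp1 did not pass the test. Their log2 fold changes were 0.00 ± 0.29, -0.18 ± 0.26 and -0.29 ± 0.29 (edgeR adjusted p = 0.992, 0.549 and 0.397), and the sign of all 3 depended on the scaling, the block or a single library. Gadd45b moved the other way, from 13.1 to 34.5 CPM in the fresh EM libraries to 62.2 to 79.4 CPM with PBS (1.92 ± 0.25, edgeR adjusted p = 8.16e-05). Without EM-mGC-4 all 7 calls remained, with log2 fold changes of -4.19 for Fosb, -3.08 for Atf3, -2.35 for Fos, -1.36 for Egr1, -1.06 for Jun, -0.70 for Nr4a1 and 2.12 for Gadd45b.

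Leukocyte and neutrophil markers were low in culture. All 8 leukocyte markers were lower with PBS, summing to 14.5 to 16.7 CPM, and Ptprc, the common leukocyte antigen, had at most 1 read per library. Neutrophil markers summed to 0.57 to 1.15 CPM, with S100a8, S100a9, Csf3r, Retnlg and Ly6g at 0 reads in every PBS library. Endothelial markers were called lower for 6 of 6 and red cell markers for 4 of 4. Of the 8 theca and stromal markers, 5 were called lower and 1 higher. Granulosa markers were called lower for 9 of 10, where 37.9% of all genes were called lower and 31.1% higher. The part of these cells in the lower levels of Fos, Fosb and Atf3 was not tested.

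**Figure D4:**
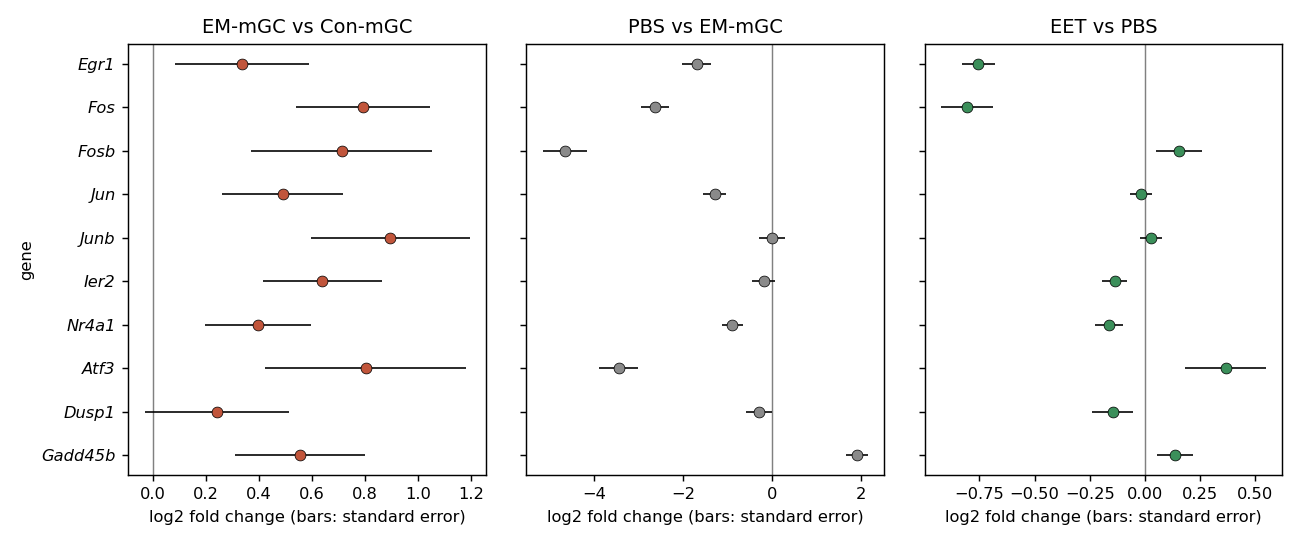
Log2 fold change of each of the 10 genes in the 3 comparisons, with bars of 1 standard error to each side, and a separate axis for each panel. All 10 points lie above 0 for EM-mGC vs Con-mGC (0.24 to 0.90), PBS vs EM-mGC runs from -4.67 for Fosb to 1.92 for Gadd45b, and in EET vs PBS Egr1 and Fos lie apart from the rest at -0.76 and -0.80.

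On a single scale over all 16 libraries, the order of the 4 groups differed between the genes. Egr1 had 256 ± 123 (SD) CPM in the EM group, 202 ± 38.6 in the Con group, 80.3 ± 7.84 with PBS and 47.4 ± 3.23 with EET, and Fos had 262 ± 108, 151 ± 39.4, 43.1 ± 8.21 and 24.6 ± 2.38 CPM. For both, only the EM and Con groups overlapped. Jun and Nr4a1 had the same order with PBS and EET overlapping too. Fosb and Atf3 were lowest with PBS, at 8.93 ± 0.53 and 3.73 ± 0.77 CPM, and overlapped with EET, at 9.90 ± 0.68 and 4.82 ± 0.82 CPM. For Gadd45b the order was turned round, from 87.1 ± 5.56 CPM with EET and 79.6 ± 10.3 with PBS down to 20.7 ± 7.14 in the EM and 14.0 ± 3.97 in the Con group, and the cultured groups did not overlap the fresh ones. For Junb and Dusp1 neighbouring groups overlapped throughout, and for Ier2 only PBS and EET did not.

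Compared per length of their exons, Jun and Fos led in the Con group with 72.7 and 69.8 CPM per kb, followed by Egr1 with 49.1, and Gadd45b was the lowest with 9.61. In the EM group Fos led with 121 CPM per kb, ahead of Jun with 102. With PBS the order was different, since Gadd45b (43.6), Ier2 (43.1) and Junb (42.4 CPM per kb) led, Fos and Egr1 stood at 15.9 and 15.6, and Atf3 and Fosb came last at 1.50 and 1.24. With EET, Gadd45b led again with 47.9 CPM per kb, and Egr1 and Fos stood at 9.23 and 9.14.

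AP-1 is a dimer of a FOS with a JUN protein or of 2 JUN proteins, so its makeup depends on the ratio of the family members. As a share of the summed counts per exon base of the 7 FOS and JUN genes, Fos took 24.3 ± 2.80% (SD) in the Con group, 28.4 ± 1.62% in the EM group, 5.59 ± 1.12% with PBS and 3.29 ± 0.29% with EET. Jun took 25.5 ± 2.25%, 24.2 ± 2.10%, 11.9 ± 0.30% and 12.1 ± 0.20%. Both shares were lower in every cultured library than in any fresh one. Fosb fell from 8.24 ± 1.10% and 8.67 ± 2.03% in the fresh groups to 0.44 ± 0.02% with PBS and 0.50 ± 0.04% with EET.

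The largest shares in culture belonged to genes outside the set. Jund, the JUN member known for steady expression, took 12.4 ± 3.15% in the Con and 12.5 ± 2.02% in the EM group, but 37.2 ± 1.21% with PBS and 38.8 ± 0.47% with EET. Fosl2 took 19.8 ± 5.56%, 13.9 ± 3.19%, 29.4 ± 0.62% and 29.1 ± 0.31%. In the comparison of PBS with EM-mGC, Jund rose by a log2 fold change of 1.32 and Fosl2 by 0.91. The 4 FOS genes together took 52.4 ± 2.83% in the Con group, 51.0 ± 2.24% in the EM group, 36.0 ± 1.56% with PBS and 33.5 ± 0.05% with EET, and the fresh groups overlapped. Between PBS and EET this sum follows Fos, which chose the set, so nothing is read from its difference there. These shares do not depend on the scaling between libraries, but they depend on the gene models used for length.

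**Figure D5:**
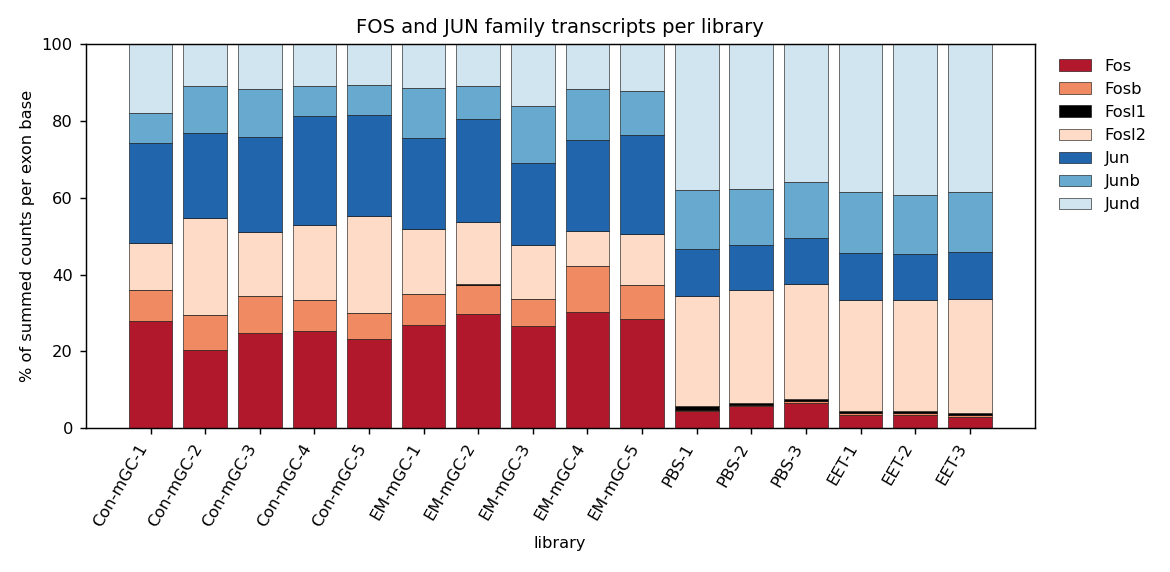
Share of each FOS and JUN family gene in their summed counts per exon base, in percent, with 1 stacked bar per library for all 16 libraries. Fos and Jun take 24.3% and 25.5% of the Con bars on average, whereas Jund and Fosl2 take the largest shares in the 6 cultured bars (37.2% and 29.4% on average with PBS).

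Relatives of the 10 genes also moved apart between cultured and fresh cells. Of 19 tested out of 20, 9 were higher and 5 lower with PBS, again against 69% of all genes called. Dusp4, a MAP kinase phosphatase like Dusp1, rose by a log2 fold change of 6.98, from 2.92 ± 2.49 to 302 ± 53.9 CPM, and Dusp6 by 2.94. Among AP-1 relatives Fosl1 rose by 4.16, though to only 3.38 ± 1.22 CPM. Batf fell by 3.60 on the log2 scale, and Batf3, with 6 to 18 reads in the EM libraries, had 0 reads in each PBS library. Egr3 fell by 1.73 on the log2 scale and Gadd45g rose by 2.62.

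In this comparison 31.1% of all genes were called higher and 37.9% lower, which is the background for each list below. Of the 30 other immediate early genes, 8 were higher and 8 lower with PBS. Ccn1, a secreted matrix protein, and Cebpb, a transcription factor of the ovulatory response, rose by log2 fold changes of 4.23 and 3.07. Socs3, an inhibitor of cytokine signalling, and Nfkbiz, a nuclear regulator of NF-kB, fell by 2.61 and 2.17 on the log2 scale. Of the 28 upstream kinases and factors 12 were higher and 5 lower. Serum response factor, Srf, rose by 1.47 and its cofactor Mrtfa by 1.09, Hras by 1.31, and Elk4, an ETS partner of Srf, fell by 1.23 on the log2 scale. Among heat shock genes 3 were higher and 4 lower, and Hspb1 rose by 3.81. Hspa1b and Hspa1a, near-identical copies that may share reads, fell by 2.72 and 2.64 on the log2 scale. Of the EGR corepressors, Nab1 rose by 0.58 (edgeR adjusted p = 0.00689) and Nab2 had a log2 fold change of -0.26 that did not pass the test.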

How the data were processed

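The authors deposited 2 tables of raw read counts per Ensembl gene, 1 for each experiment, made from poly(A) libraries with a stranded kit and 150-base paired reads. The submitters' processing notes name fastp, HISAT2, StringTie and build GRCm39. The versions and the strand setting of the counting are not given in the sources used here. No column was left unused (0 columns).

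The counts were analysed with R 4.3.3 and edgeR 4.0.16. Genes were kept by filterByExpr and normalized by TMM, and each comparison had its own fit with the quasi-likelihood test, Benjamini-Hochberg adjustment over all genes tested and a call at an adjusted p of 0.05. DESeq2 1.42.0, other scalings and filters, a replicate block and leaving out each library were alternatives. TMM over the 8 libraries of PBS and EM-mGC moved the difference of levels by 0.30 on the log2 scale against the scaling within experiments, and the median of all genes was -0.11 in that fit. Exon lengths came from GENCODE M21 (GRCm38), used for lengths only, and promoters from RefSeq GRCm38.p6, while gene coordinates are those deposited with the counts.

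All 10 members were named in every comparison, and other lists by counts and by the called genes with the largest change, up to 4 a list, with relatives of a member where it was described. The 8 genes most like the members' mean were ranked among genes with a mean log2 CPM of at least 1, without predicted symbols. The members and all lists were chosen with earlier results of these data known. Replicates of a group differed by more than sampling noise. How cells of the 6 mice were combined into the 3 cultures of a group is not stated, so p-values between cultures may measure technical spread. On simulated data with 200 genes changed 2-fold, the test recovered 108 for EM-mGC vs Con-mGC, 164 for EET vs PBS and 107 for PBS vs EM-mGC. False calls numbered 9, 12 and 7. The simulated counts were drawn independently for each gene and library, without an outlying library or shared cell makeup. The recovery may therefore not hold for the real data.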

Additional observations from a re-analysis of the deposited data

Results flagged for a closer look

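In 24 groups of 5 libraries checked for a value far from the others, 7 stood apart, where chance gives about 1 in 20, and the groups share libraries, so the flags are not independent. In EM-mGC-4, Egr1 was at 516.7 CPM with the nearest EM library at 238.7 CPM, Fos at 491.6 CPM (nearest 267.5), Fosb at 522.5 CPM (nearest 216.7), Ier2 at 157.2 CPM (nearest 82.6) and Atf3 at 85.5 CPM (nearest 40.1). In the Con group, Atf3 was at 49.1 CPM in Con-mGC-3, with the nearest library at 23.5 CPM. Mitochondrial genes took 21.8% of the counts in EM-mGC-3, against 11.1% in the nearest EM library, EM-mGC-4, and EM-mGC-3 was the lowest EM library for 4 of the 10 genes. The cause of these values was not tested.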

How the results depend on the processing

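Of the 10 genes, 7 were called between PBS and EM-mGC under every alternative run, with adjusted p up to 0.0374 (Nr4a1), and none was called between EM-mGC and Con-mGC under any. Between EM-mGC and Con-mGC, Egr1 lay between -0.012 (without EM-mGC-4) and 0.44 without 1 library. Between PBS and EM-mGC, Junb turned to -0.021 with RLE scaling, -0.25 with upper quartile scaling, -0.15 with at least 10 counts in every library and -0.25 with library totals (chosen after seeing the data), and lay between -0.17 and 0.30 without 1 library. Ier2 turned to 0.16 with the replicate block and lay between -0.30 and 0.095 (without EM-mGC-4) without 1 library, and Dusp1 turned to 0.056 with the replicate block. In this comparison the replicate numbers mark no shared mouse. EM-mGC-4 and EM-mGC-5 have no PBS library of their number, so the block fit took the difference from the other EM libraries. The cause of these changes of sign was not tested. Over all genes, the 0 calls between EM-mGC and Con-mGC became 116 with DESeq2, 4 without a filter, 2 with the replicate block and 0 to 46 without 1 library (46 without Con-mGC-3). The 184 calls between EET and PBS became 322 with DESeq2, 662 without a filter, 341 with the replicate block and 48 to 436 without 1 library, the lowest without EET-3 and EET-2 (61) and the highest without PBS-2 and PBS-1 (350). Without EET-1 there were 122. The 11937 calls between PBS and EM-mGC lay between 8560 and 14355. The methods call the cultured replicates paired without saying that the replicate numbers mark the pairs, and deviations of same-numbered libraries correlated at 0.0602, 0.0980 and -0.0237 while 3 of 6 libraries correlated best with their own number. Fresh cells came from separate mice (2 of 10). Of the 10 genes, Atf3 had the fewest counts, 60 to 127 per culture, so counting error weighs on its values there.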
